A study of Mus musculus with 12 samples.

Results

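The 9 genes described here encode surface receptors and signalling proteins of B cells: Cd79a, Cd79b, Blk, Fam129c, Cd22, Cd72, Fcer2a, Fcmr and Fcrla. They were taken by symbol from the deposited expression table, which lists 21853 genes, and all 9 were among the 10994 genes expressed highly enough to be tested. The genes were selected on earlier results of the same table, in which they were lower than control after irradiation and after DEIX. Their differences from control are therefore given as descriptions, with no test. Differences between the treated groups were tested, but the TBI and DEIX libraries were part of that choice, which limits these tests.

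RNA was sequenced from whole bone marrow cells of B6 mice in 4 groups of 3 libraries. Control mice were not irradiated. TBI mice received a whole-body gamma dose of 5 Gy (total body irradiation, TBI), at a rate of 0.66 Gy/min, and the vehicle by gavage, 100 µL of olive oil. TBI+DEIX mice received the same irradiation and DEIX by mouth, and DEIX mice received DEIX without irradiation. DEIX, which the series title gives as deinoxanthin, a bacterial carotenoid, was dosed at 25 mg/kg daily over 14 days. Marrow was collected on day 14 after irradiation. The labels state no vehicle for the control or DEIX mice, so any effect of dosing itself cannot be told apart from the difference from control. Whether each library came from a separate mouse is not stated, and p-values measure only the spread between these libraries.

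A B cell senses antigen through surface immunoglobulin bound to the CD79A and CD79B chains, whose cytoplasmic tails carry the activation motifs that Src-family kinases phosphorylate. CD22 and CD72 carry inhibitory motifs and dampen that signal. CD79A and CD79B are already made by precursors in the marrow, while Fc receptors such as CD23, the product of Fcer2a, are typical of mature B cells, which return to the marrow from the blood.

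Upstream sequence was read from RefSeq for the members whose transcription start could be placed. RefSeq (GRCm38.p6) held a window for 7 of the 9 genes, not for Cd79b or Blk. The stretches below lie upstream of the start given by both RefSeq and GENCODE, and are shown to let the signalling chain Cd79a, the inhibitory receptor Cd72 and the 3 Fc receptor family genes be compared. They are chr7:24897247-24897380 on the plus strand for Cd79a, chr4:43454629-43454876 on the minus strand for Cd72, chr8:3694176-3694424 on the minus strand for Fcer2a, chr1:130865527-130865668 on the plus strand for Fcmr and chr1:170927584-170927833 on the minus strand for Fcrla. Each is written 5′ to 3′ on the strand of its gene, in lower case, and capitals mark a match to one of the motifs named after the sequences.
Cd79a: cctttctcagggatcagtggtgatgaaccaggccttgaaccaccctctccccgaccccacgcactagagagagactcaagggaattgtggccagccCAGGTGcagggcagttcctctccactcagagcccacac
Cd72: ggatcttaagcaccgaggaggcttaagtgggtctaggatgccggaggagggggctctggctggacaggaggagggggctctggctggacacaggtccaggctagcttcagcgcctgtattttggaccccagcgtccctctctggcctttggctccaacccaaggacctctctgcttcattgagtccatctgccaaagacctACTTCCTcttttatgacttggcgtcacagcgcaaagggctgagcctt
Fcer2a: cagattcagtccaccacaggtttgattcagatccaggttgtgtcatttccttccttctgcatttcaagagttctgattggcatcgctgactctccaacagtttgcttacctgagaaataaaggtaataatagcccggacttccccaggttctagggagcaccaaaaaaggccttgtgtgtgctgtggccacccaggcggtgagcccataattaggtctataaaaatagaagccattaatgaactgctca
Fcmr: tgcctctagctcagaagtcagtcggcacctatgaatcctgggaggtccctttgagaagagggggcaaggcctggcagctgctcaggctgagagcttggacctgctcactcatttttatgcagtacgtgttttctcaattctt
Fcrla: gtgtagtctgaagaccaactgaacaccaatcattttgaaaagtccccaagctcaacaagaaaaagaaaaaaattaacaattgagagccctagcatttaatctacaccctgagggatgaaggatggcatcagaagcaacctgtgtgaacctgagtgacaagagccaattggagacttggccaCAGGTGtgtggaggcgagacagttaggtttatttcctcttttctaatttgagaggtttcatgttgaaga

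Motifs were searched on both strands in the 250 bases before the RefSeq start of the 7 genes and of all 32851 windows in the table. The E-box CAGGTG was in 4 of the 7 windows (Cd79a, Fam129c, Cd22 and Fcrla) and in 17.2% of all windows. An Ets motif, AGGAAGT, was in 2 (Cd79a and Cd72), against 7.69% of all windows. The Ets match of Cd79a lies downstream of its GENCODE start and is not in the stretch shown. CCCNNGGG, a pair of half-sites for the B cell factor EBF1, was in 2 (Fam129c and Cd22), against 11.8%. The octamer ATGCAAAT (1.60% of all windows) and an Ets-IRF composite (2.30%) were in none of the 7. No match to these letters was found before Fcer2a or Fcmr. These matches describe the sequence and do not show that a factor binds.

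Total reads per library are unknown because the table holds FPKM (fragments scaled by transcript length and library size). Summed over genes, FPKM came to between 493683 and 848843 per library, and 10359 to 10832 genes had an FPKM of at least 1. Markers of neutrophils, erythroid cells, monocytes, megakaryocytes and B lineage cells, each summed over its list, were above 0 in every library. Outside those lists, the neutrophil genes S100a8, S100a9 and Ngp were listed at 0 in 2, 4 and 5 libraries and were above 13842 FPKM in the others, so a 0 in this table can be a failed estimate. TBI+DEIX replicate 1 lay apart from all other libraries, at 53.3 on a first principal component (38.3% of the variance) where the other 11 reached at most 21.5. That library was the lowest of the 12 for 8 of the 9 genes, and TBI replicate 1 was the lowest TBI library for all 9.

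All 9 genes were lower than control in every TBI, TBI+DEIX and DEIX library. The libraries did not overlap control for 9 of 9 genes in TBI, where 16.3% of all tested genes were lower without overlap, for 9 of 9 in DEIX (17.2% of all genes) and for 9 of 9 in TBI+DEIX (21.1%). This count follows from how the genes were chosen. On the log2(FPKM + 1) scale, which understates changes of low values, the median difference from control over the 9 genes was -2.54 in TBI, -2.18 in DEIX and -3.48 in TBI+DEIX, while the median over all tested genes was 0.05, 0.02 and 0.02. Control libraries lay close together for these genes, with a root mean square SD within the group of 0.19 (log2), against 0.31 in DEIX, 1.01 in TBI and 1.09 in TBI+DEIX. Over all tested genes it was 0.20 in control, 0.25 in DEIX, 0.25 in TBI and 0.44 in TBI+DEIX. Single libraries moved the differences from control. Without TBI replicate 1, Cd79a went from -2.02 to -0.95 in TBI, Cd79b from -2.41 to -1.68, Fam129c from -3.02 to -2.35 and Cd72 from -3.16 to -2.52, and without TBI replicate 3 Cd79a was at -2.63. Without TBI+DEIX replicate 1, Cd79a went from -3.02 to -1.84 in TBI+DEIX, Cd79b from -3.48 to -2.63 and Fcrla from -3.55 to -2.76. Without TBI+DEIX replicate 2 Cd79a was at -3.73, and without replicate 3 Fcrla was at -4.29. In bulk marrow, fewer B cells and less RNA per B cell cannot be told apart.

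**Figure D1:**
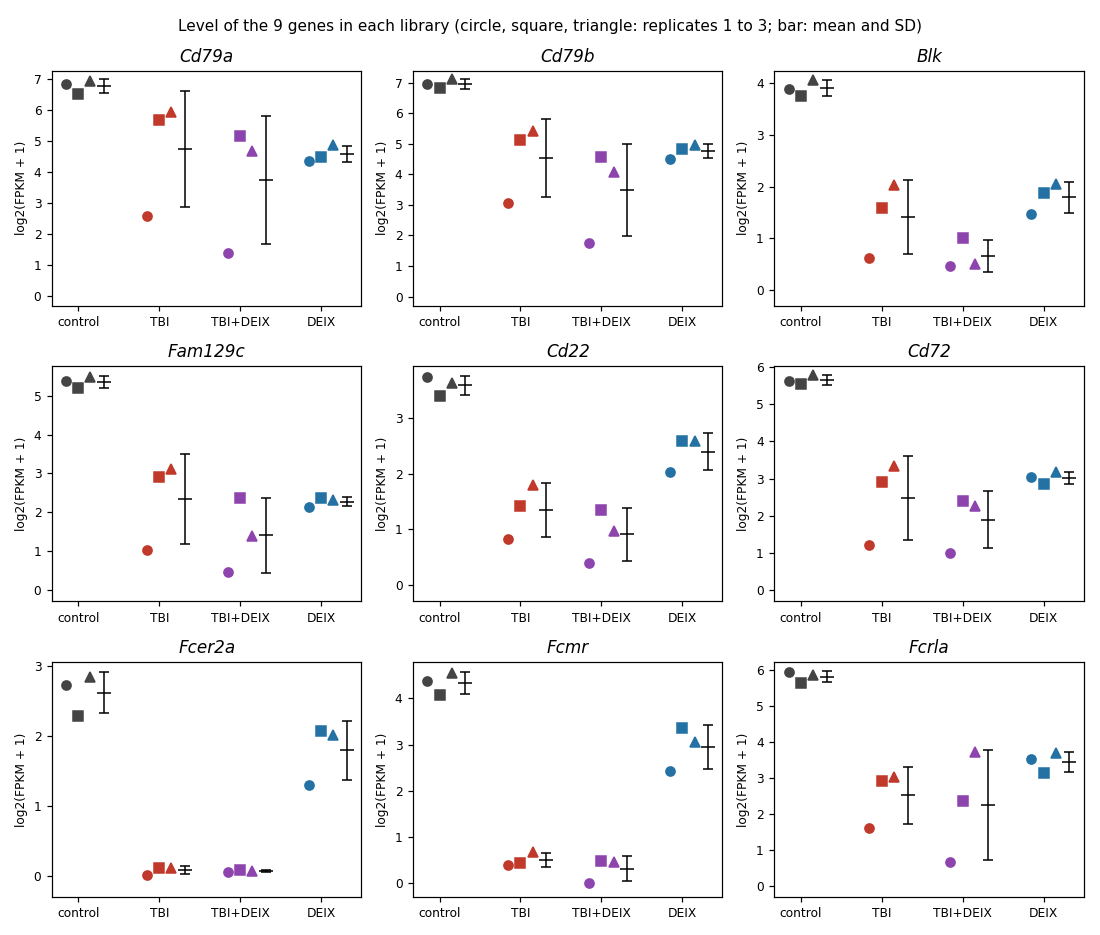
Level of each of the 9 genes, as log2(FPKM + 1), in the 12 libraries by group, with the replicates as circle, square and triangle and the group mean and SD beside them. All 9 treated libraries lie below the 3 control libraries in every panel, and the TBI libraries are spread most widely in Cd79a and Cd79b, where replicate 1 is far below the others.

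The immunoglobulin-associated signalling chains were the most abundant members. Cd79a (chr7:24897381-24902197) was at 113, 90.5 and 122 FPKM in control replicates 1 to 3, 5.07, 50.2 and 60.7 after TBI, 1.62, 35.2 and 24.6 after TBI+DEIX, and 19.7, 21.7 and 28.7 with DEIX alone. Its partner Cd79b (chr11:106311341-106314762) was at 122, 111 and 138 FPKM in control, 7.43, 34.1 and 41.8 after TBI, 2.39, 22.9 and 15.9 after TBI+DEIX, and 21.6, 27.6 and 30.1 with DEIX alone. Both genes were far lower in replicate 1 than in replicates 2 and 3 of each irradiated group, while the 3 DEIX libraries lay close together. The TBI mean was 35.6% of the control mean for Cd79a and 22.5% for Cd79b, and the DEIX means were 21.5% and 21.4%. The FPKM ratio of Cd79a to Cd79b, 2 chains that pair in the receptor, was 0.876 ± 0.058 in control and 0.883 ± 0.087 in DEIX (SD, n = 3). In TBI and TBI+DEIX it was 1.2 ± 0.45 and 1.25 ± 0.50, with replicate 1 below the control range in both and replicates 2 and 3 above it.

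Blk and Fam129c act inside the cell. Blk (chr14:63372836-63417037), a Src-family kinase of B cells, was at 13.8, 12.4 and 15.6 FPKM in control, 0.543, 2.01 and 3.09 after TBI, 0.384, 1.01 and 0.420 after TBI+DEIX, and 1.77, 2.65 and 3.14 with DEIX alone. Fam129c (chr8:71597648-71607936), which encodes a cytoplasmic protein of B cells, was at 40.8, 35.8 and 44.2 FPKM in control, 1.02, 6.48 and 7.65 after TBI, 0.364, 4.20 and 1.59 after TBI+DEIX, and 3.40, 4.14 and 4.01 with DEIX alone. The TBI and DEIX libraries overlapped for both genes, and of the 9 members Fam129c had the smallest share of control left in DEIX, 9.57%. Exons of Fam129c overlap those of Pgls on the same strand, so a part of its reads may have been assigned to either gene.

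Cd22 and Cd72 are the inhibitory receptors of the set. Cd22 (chr7:30865402-30880342), a lectin that binds sialic acid, was at 12.4, 9.55 and 11.5 FPKM in control, 0.774, 1.68 and 2.49 after TBI, 0.319, 1.55 and 0.960 after TBI+DEIX, and 3.07, 5.04 and 5.01 with DEIX alone. Cd72 (chr4:43446462-43454628), a C-type lectin, was at 48.8, 45.5 and 54.1 FPKM in control, 1.32, 6.54 and 9.17 after TBI, 1.01, 4.27 and 3.79 after TBI+DEIX, and 7.25, 6.18 and 7.97 with DEIX alone. All 3 DEIX libraries were above all 6 irradiated libraries for Cd22, whereas for Cd72 they lay within the TBI range. The DEIX mean of Cd22 was 39.2% of control and that of Cd72 was 14.4%. Both genes share exon sequence with a gene on the other strand (the antisense transcript Gm29439 and Tesk1), and whether the counting used strand is not given in the sources used here.

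The lowest group means of the set were those of Fcer2a and Fcmr in TBI and TBI+DEIX. Fcer2a (chr8:3681737-3694175), the low-affinity receptor for IgE, was at 5.61, 3.90 and 6.22 FPKM in control, 0.00906, 0.0814 and 0.0793 after TBI, 0.0388, 0.0622 and 0.0471 after TBI+DEIX, and 1.47, 3.20 and 3.02 with DEIX alone. Fcmr (chr1:130865669-130880791), the Fc receptor for IgM, was at 19.8, 15.9 and 22.3 FPKM in control, 0.315, 0.343 and 0.592 in TBI, and 4.37, 9.23 and 7.28 in DEIX. In TBI+DEIX it was listed at 0 in replicate 1 and was at 0.393 and 0.363 FPKM in the others. For both genes the groups formed separate ranges, with control highest, DEIX between and both irradiated groups at the bottom, overlapping each other. The TBI mean was 1.08% of control for Fcer2a and 2.16% for Fcmr, and the DEIX mean was 48.9% and 36.0%. The number of reads behind these low values cannot be read from the table.

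Fcrla (chr1:170917576-170927583) encodes an Fc receptor-like protein that stays inside the B cell. It was at 59.6, 48.9 and 56.9 FPKM in control, 2.05, 6.55 and 7.20 after TBI, 0.591, 4.11 and 12.3 after TBI+DEIX, and 10.5, 7.79 and 11.8 with DEIX alone. Of the 9 genes it was the one whose highest TBI+DEIX value was in replicate 3 and not in replicate 2, and the one whose TBI+DEIX mean (10.3% of control) was above its TBI mean (9.56%).

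The order of the group means was control, DEIX, TBI, TBI+DEIX for 5 genes (Blk, Cd22, Cd72, Fcer2a and Fcmr). It was control, TBI, DEIX, TBI+DEIX for Cd79a, Cd79b and Fam129c, and control, DEIX, TBI+DEIX, TBI for Fcrla. TBI and TBI+DEIX overlapped for all 9 genes, and TBI and DEIX overlapped for 5, so the order of these neighbours is within the spread of the libraries there. The share of control left varied within a library: in TBI replicate 3 it ran from 1.51% for Fcer2a to 55.9% for Cd79a, and in DEIX replicate 2 from 10.3% for Fam129c to 61.0% for Fcer2a. Thus Fcer2a had the lowest share of the 9 in every TBI library and the highest in every DEIX library.

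**Figure D2:**
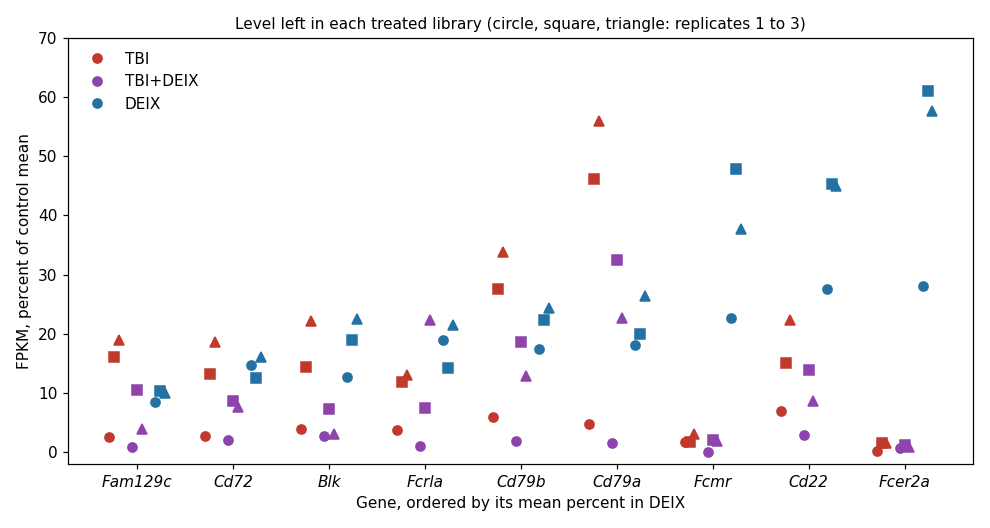
FPKM of each gene in the 9 treated libraries as a percentage of its control mean, with genes ordered by their mean in DEIX and replicates as circle, square and triangle. Fcmr and Fcer2a stay under 4% in all 6 irradiated libraries and lie above 20% in all 3 DEIX libraries, while for Fam129c the TBI and DEIX points share one range.

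TBI+DEIX against TBI asks whether DEIX changed these genes in irradiated marrow. None of the 9 genes was called by limma at a Benjamini-Hochberg adjusted p under 0.05, against a background of 8.1% of all tested genes. Blk alone had an unadjusted p under 0.05, 1 of 9 against 27.2% of all genes. The fitted difference was below 0 for all 9 genes, with a median of -0.60 (log2). This median is the value of Cd72, which was -1.24 without TBI replicate 1 and -0.16 without TBI+DEIX replicate 1. Cd79b went from -1.07 to -1.80 and -0.21 without the same libraries. Blk differed by -0.75 (95% interval -1.42 to -0.09, adjusted p 0.139 by limma). The intervals were wide for Cd79a (-3.12 to 1.14), Cd79b (-2.59 to 0.45) and Fcrla (-1.61 to 1.07). Fcer2a and Fcmr were under 0.6 FPKM in all 6 irradiated libraries, where log2(FPKM + 1) can hardly show a change, so their intervals (-0.45 to 0.43 and -0.69 to 0.31) are set in part by the pseudocount. With a pseudocount of 0.1 the difference was -0.03 for Fcer2a and -0.83 for Fcmr. TBI+DEIX replicate 1, where Fcmr was listed at 0, enters this value: the other 2 libraries lay within the TBI range, and without that library the difference on the log2(FPKM + 1) scale was -0.035. Without TBI replicate 1, Blk (-1.15, limma adjusted p 0.0240) and Fam129c (-1.61, limma adjusted p 0.0447) were called lower in TBI+DEIX. Without TBI+DEIX replicate 1 none was called, and Cd79a and Fcrla turned to 0.19 and 0.52.

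DEIX against TBI sets unirradiated DEIX marrow beside irradiated marrow given vehicle, which differ in both treatments. Fcmr and Fcer2a were called higher in DEIX, 2 of 9 genes, where 0.3% of all tested genes were. The choice of the 9 genes used these same libraries, so the 2 shares are not on equal terms. Both genes reached 1 FPKM in control and DEIX libraries only, so they passed the filter on low values through groups where they were high. Fcmr differed by 2.45 (SE 0.23, limma adjusted p 0.00333, 95% interval 1.95 to 2.94) and Fcer2a by 1.72 (SE 0.20, limma adjusted p 0.0108, 95% interval 1.28 to 2.15), each higher in 3 of 3 DEIX libraries than in any TBI library. The size, the SE and the interval depend on the pseudocount, since log2(FPKM + 1) compresses the low TBI values. With 0.1 in place of 1, the difference was 3.75 for Fcmr (limma adjusted p 0.0208) and 4.05 for Fcer2a (limma adjusted p 0.00138). Cd22 (1.05, SE 0.28) and Fcrla (0.92, SE 0.61) were also higher without overlap, but were not called (limma adjusted p 0.118 and 0.470). In all, 4 of 9 genes were higher without overlap, against 14.8% of all genes, and 3 had an unadjusted p under 0.05, against 16.8%. The other 5 genes overlapped, with intervals that span 0 and reach from -2.28 to 1.98 for Cd79a and from -1.23 to 1.10 for Fam129c. Fcmr was called under each of the 19 alternative settings run (limma adjusted p from 0.000705 to 0.0369). Fcer2a was not called without TBI replicate 2 (limma adjusted p 0.0769) or TBI replicate 3 (0.0563), and without TBI+DEIX replicate 1 Cd22 was called as well (limma adjusted p 0.0325).

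TBI+DEIX against DEIX asks what irradiation changed in DEIX-treated mice. Fcmr (-2.63, SE 0.23, limma adjusted p 0.000773), Fcer2a (-1.72, SE 0.20, limma adjusted p 0.00280) and Cd22 (-1.49, SE 0.28, limma adjusted p 0.0228) were called lower in TBI+DEIX, 3 of 9 genes against 1.76% of all tested genes. With Blk and Cd72, 5 genes were lower without overlap, against 8.96% of all genes, and the same 5 had an unadjusted p under 0.05, against 16.2%. The DEIX libraries were part of the choice of the 9 genes, so these shares are not on equal terms with those of all genes. Fcmr and Fcer2a passed the filter on low values only through control and DEIX, where they were high. The differences of Cd79a (95% interval -2.97 to 1.29), Cd79b (-2.82 to 0.23), Fam129c (-2.04 to 0.29) and Fcrla (-2.54 to 0.15) spanned 0. With a pseudocount of 0.1 the differences were -4.57 for Fcmr, -4.08 for Fcer2a and -2.28 for Cd22. Without TBI replicate 1 Blk was called as well (-1.13, limma adjusted p 0.0219), 4 of 9 genes. None of Fcmr, Fcer2a and Cd22 was called when only these 2 groups were fitted (limma adjusted p 0.0754 for Fcmr, 0.105 for Fcer2a and 0.182 for Cd22), and Cd22 was not called without DEIX replicate 2 (0.0887) or DEIX replicate 3 (0.0901). The 3 between-group comparisons share libraries, so their values for a gene are not independent.

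**Figure D3:**
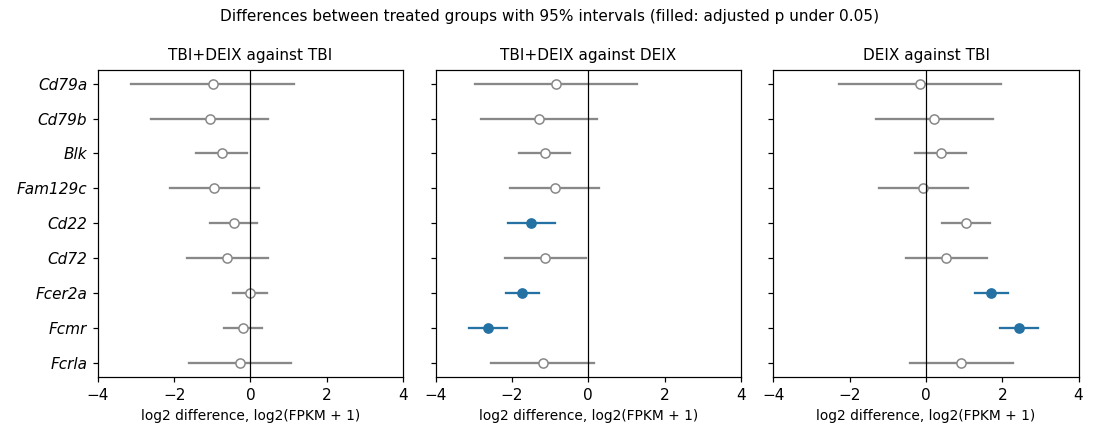
Difference of log2(FPKM + 1) between treated groups for each gene, with 95% intervals from the limma fit and filled points for an adjusted p under 0.05. Fcmr and Fcer2a stand away from 0 in both comparisons with DEIX. Between the 2 irradiated groups both are under 0.6 FPKM, so the short intervals there reflect the log2(FPKM + 1) scale.

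The ratios of Fcmr and Fcer2a to Cd79b in the same library are given as a description, since they were chosen after their values were seen. The FPKM ratio of Fcmr to Cd79b was 0.156 ± 0.011 in control, 0.0222 ± 0.0177 in TBI (0.0425 in replicate 1, 0.0100 and 0.0142 in replicates 2 and 3) and 0.260 ± 0.068 in DEIX (SD, n = 3). The ratio of Fcer2a to Cd79b was 0.0420 ± 0.0061, 0.00183 ± 0.00059 and 0.0949 ± 0.0246 in the same groups. In TBI+DEIX the 2 ratios were 0.0133 ± 0.0119 and 0.00731 ± 0.00775. For both genes the FPKM ratio of every DEIX library was above every control library, and that of every TBI library was below every control and DEIX library. With log2(FPKM + 1) values in place of FPKM, the DEIX and TBI libraries were not fully apart for Fcer2a.

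Genes of B cell precursors varied widely among the irradiated libraries. The summed FPKM of 8 precursor genes (Rag1, Rag2, Dntt, Vpreb1, Vpreb3, Igll1, Il7r and Lef1) was 289 to 322 in control, 25.6 to 368 after TBI, 7.73 to 176 after TBI+DEIX, and 21.5 to 38.9 with DEIX alone. None of the 8 was at 0 in a library, and 1 was called lower than control by limma in TBI (3.1% of all tested genes), 2 in DEIX (2.72%) and 4 in TBI+DEIX (13.1%). Among the treated groups limma called 0 of the 8, with 1 at an unadjusted p under 0.05 in TBI+DEIX against TBI, 0 in TBI+DEIX against DEIX and 5 in DEIX against TBI (27.2%, 16.2% and 16.8% of all genes), so no order of the treated groups is given. Vpreb1, a surrogate light chain of the pre-B cell receptor, was at 32, 37.5 and 37.4 FPKM in control, 4.69, 73.7 and 85.0 in TBI, and 0.984, 3.11 and 3.26 in DEIX. In both TBI replicates 2 and 3, 4 of the 8 genes (Vpreb1, Igll1, Dntt and Lef1) were above every control library and 2 (Vpreb3 and Il7r) were below every one, while Fcmr in these libraries was at 0.343 and 0.592 FPKM. In TBI replicate 1 all 8 were below every control library, at 0.315 FPKM of Fcmr. Vpreb1 was chosen as the example after its values were seen. The DEIX libraries were all below control for Vpreb1 at 4.37 to 9.23 FPKM of Fcmr. How far the mix of precursors and mature cells enters the values of the 9 genes was not tested.

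**Figure D4:**
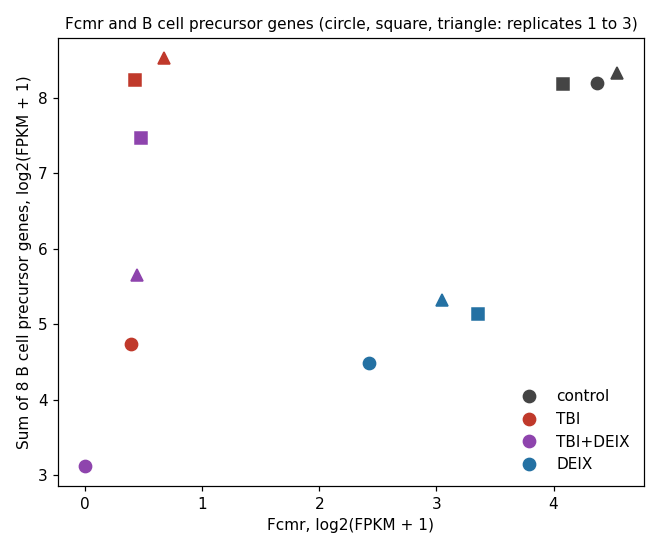
Each library by its Fcmr level and by the summed FPKM of 8 B cell precursor genes, both as log2(FPKM + 1), with groups in colours and replicates as circle, square and triangle. TBI replicates 2 and 3 have precursor sums near those of control at an Fcmr level near 0. TBI replicate 1 has a sum of 25.6 FPKM, within the range of the 3 DEIX libraries (21.5 to 38.9 FPKM), which have a higher Fcmr level.

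Markers of some other cell types were also lower than in control. Their counts without overlap stand against 16.3% of all tested genes in TBI, 17.2% in DEIX and 21.1% in TBI+DEIX. The 6 genes of a plasmacytoid dendritic cell list, a cell type that shares some genes with B cells, summed to 358 to 421 FPKM in control, 125 to 143 after TBI, 36.5 to 112 after TBI+DEIX, and 166 to 190 with DEIX alone, and 6 of 6 were lower than control without overlap in each treated group. By limma 3 of the 6 were called lower in TBI (3.1% of all genes), 1 in DEIX (2.72%) and 6 in TBI+DEIX (13.1%). The 6 were Siglech, Ccr9, Tcf4, Irf8, Bst2 and Ly6d. Ly6d had the largest control mean of them, 148 FPKM, and is also among the 8 genes nearest in profile to the members, given below. How far B lineage cells enter this sum was not tested. The 8 T cell genes summed to 33.6 to 36.7 FPKM in control, 13.9 to 22.1 after TBI, 11 to 29.8 after TBI+DEIX, and 19.1 to 24.9 with DEIX alone. Of these, 7 were lower than control without overlap in TBI, 6 in DEIX and 3 in TBI+DEIX, while 1, 0 and 2 were called lower by limma. No gene of these 2 lists was at 0 in a library. The 7 plasma cell genes summed to 323 to 483 FPKM in control, 358 to 470 after TBI, 242 to 1521 after TBI+DEIX, and 278 to 1130 with DEIX alone, and Tnfrsf17 was listed at 0 in 1 TBI+DEIX library. Jchain had the largest control mean of the 7, 261 FPKM. In TBI, TBI+DEIX and DEIX, 2, 1 and 1 of the 7 were lower than control without overlap. In the same order 0, 2 and 1 were higher (22%, 23.9% and 23.4% of all genes). By limma 0, 1 and 0 were called lower and 0 higher. All 6 B cell transcription factor genes were lower than control without overlap in each treated group. In the order TBI, TBI+DEIX and DEIX, the same held for 4, 3 and 1 of 4 megakaryocyte genes, 0, 6 and 0 of 6 erythroid genes, 1, 2 and 0 of 5 monocyte genes, and 0, 1 and 0 of 7 neutrophil genes. In the same order limma called 2, 5 and 3 of the 6 transcription factor genes lower, 3, 4 and 0 of the megakaryocyte, 0, 4 and 0 of the erythroid, 0, 1 and 0 of the monocyte, and 0, 1 and 0 of the neutrophil genes. Some myeloid genes were higher. Without overlap this was 1, 1 and 3 of the 5 monocyte genes and 3, 1 and 1 of the 7 neutrophil genes in that order, against 22%, 23.9% and 23.4% of all genes. Vcan, a proteoglycan gene on the monocyte list, was called higher in all 3 treated groups, and 1 neutrophil gene was called higher in TBI+DEIX.

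Some of these marker genes also differed between the treated groups. For TBI+DEIX against DEIX, limma called 3 of the 6 plasmacytoid dendritic cell genes and 2 of the 4 megakaryocyte genes lower, against 1.76% of all genes, and 4 and 3 of them were lower without overlap, as were 3 of the 5 monocyte genes, against 8.96%. For TBI+DEIX against TBI, where none of the 9 genes was called, 3 plasmacytoid dendritic cell, 3 erythroid and 1 megakaryocyte genes were called lower, against 3.41%, and all 6 erythroid genes were lower without overlap, against 12.7%. In DEIX against TBI no marker gene of these lists was called, while 3 plasmacytoid dendritic cell, 3 T cell, 3 megakaryocyte and 3 monocyte genes were higher without overlap, against 14.8%, and 2, 0, 3 and 3 of these lists' genes had an unadjusted p under 0.05. The part of these cell types in the values of the 9 genes was not tested.

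Other genes of B cell signalling were called lower than control in each treated group. Of 50 genes in 3 lists, 46 were tested. In TBI against control 11 were called lower and 0 higher by limma, against 3.1% and 0.891% of all tested genes. Tnfrsf13c, the receptor for the survival factor BAFF, fell from 14.6 ± 2.16 to 2.08 ± 1.12 FPKM (SD over 3 libraries, limma adjusted p 0.00479). Ccr7 and Cd2, a homing receptor and an adhesion molecule shared with T cells, fell from 6.38 ± 0.898 to 0.922 ± 0.462 FPKM (limma adjusted p 0.000231) and from 14.6 ± 1.17 to 2.19 ± 0.333 FPKM (limma adjusted p 0.00139). Cr2, the complement coreceptor of mature B cells, had a mean of 1.15 FPKM in control and 0.0214 FPKM in TBI, 1.86% of control. On the log2(FPKM + 1) scale Cr2 fell by 1.07 (limma adjusted p 0.00291), and with a pseudocount of 0.1 by 3.35. Cr2 reached 1 FPKM in 3 libraries only, 2 of control and 1 of DEIX, so it passed the filter on low values through groups where it was high.

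In DEIX against control, 6 of the 46 were called lower and 4 higher, against 2.72% and 4.52% of all tested genes. Ccr7 was among the lower (-1.47, SE 0.18, limma adjusted p 0.00290). Pirb, an inhibitory receptor also carried by myeloid cells, was among the higher, at 158 ± 22.0 against 68.2 ± 1.80 FPKM in control (limma adjusted p 0.00447). In TBI+DEIX against control 18 were lower and 8 higher, against 13.1% and 16.9%, so the higher genes were near the share of all genes. Siglecg, a lectin related to Cd22, fell from 30.0 ± 1.32 to 7.94 ± 4.77 FPKM (limma adjusted p 0.00289). The genes higher in these comparisons include some that neutrophils and monocytes of marrow also express, such as Lyn and Pirb.

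Btla, an inhibitory receptor of lymphocytes, followed the order of Fcmr and Fcer2a between the treated groups. It was at 14.4 ± 1.45 FPKM in control, 5.61 ± 1.2 after TBI, 4.34 ± 0.427 after TBI+DEIX, and 15.4 ± 3.94 with DEIX alone. The DEIX libraries (12.8, 20 and 13.6 FPKM) overlapped control (0.07, limma adjusted p 0.836). Of the 46, limma called 1 higher and 0 lower in DEIX against TBI (0.3% of all genes higher). Without overlap 27 were higher there (14.8% of all genes) and 1 lower. In TBI+DEIX against DEIX limma called 3 lower (1.76% of all genes) and 1 higher, and 10 were lower without overlap (8.96%) and 3 higher. In TBI+DEIX against TBI 4 of the 46 were called higher (Lyn, Syk, Pirb and Dok3) and 0 lower, against 4.69% and 3.41% of all genes. Only Pirb was still called after each library was rescaled to the same summed FPKM (limma adjusted p 0.0425, against 0.0974 for Lyn, 0.384 for Syk and 0.218 for Dok3), and Syk was not called under 11 of 19 alternative settings. For the interaction, the DEIX effect in irradiated minus that in unirradiated mice, limma called 0 of the 46 (0.2% of all genes), and 8 reached an unadjusted p under 0.05 (7.5% of all genes).

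The counts called against control, in TBI+DEIX against TBI and for the interaction depended on single libraries, on scaling and on the groups fitted. With only the groups compared they were 22 in TBI against control, 19 in DEIX against control and 0 in TBI+DEIX against TBI. Without TBI+DEIX replicate 1 they were 21 in TBI against control, 22 in DEIX against control, 16 in TBI+DEIX against TBI and 7 for the interaction. The count in TBI against control was 6 without control replicate 1 or 3. In DEIX against control it was 2 without any 1 of the control libraries, DEIX replicate 1 or DEIX replicate 3, and 6 without TBI replicate 2. In TBI+DEIX against TBI it was 0 without TBI replicate 3 and 1 without TBI+DEIX replicate 3, and for the interaction 1 without TBI replicate 3. Rescaling each library to the same summed FPKM moved the share of higher genes among all calls from 62.4% to 18.2% in DEIX against control, from 22.3% to 8.77% in TBI against control, from 56.2% to 29.8% in TBI+DEIX against control, from 57.9% to 36.0% in TBI+DEIX against TBI and from 71.7% to 50% in DEIX against TBI. Scaling by the median ratio of genes left these shares at 59.8%, 20.8%, 54.1%, 55.4% and 71.7%. The summed FPKM includes S100a8, S100a9 and Ngp, which are listed at 0 in some libraries. How far they moved the sum was not tested, and the library with the lowest sum, TBI+DEIX replicate 1, had 0 of them at 0. Rescaling to the same sum set the median of all genes at -0.12, 0.05, -0.09, -0.12 and -0.15 (log2) in these comparisons. Lyn was then no longer called in DEIX against control (limma adjusted p 0.244). The rescaling left the count of members called at 0, 3 and 2 in the comparisons of the treated groups.

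The genes nearest in profile to the mean of the 9 were found by the root mean square difference of log2(FPKM + 1), centred per gene, over the 12 libraries. Among 9607 candidates, whose median distance was 1.40, the nearest were H2-Ob (0.36), Tnfrsf13c (0.38), Bach2 (0.40), Arl5c (0.44), Snn (0.44), Ly6d (0.48), Pafah1b3 (0.48) and Cnp (0.50). H2-Ob, a class II chaperone of B cells, was at 18.4 ± 2.6 FPKM in control, 3.45 ± 2.18 after TBI, 1.90 ± 1.71 after TBI+DEIX, and 7.11 ± 2.16 with DEIX alone. Bach2, a transcription factor of B cells, was at 14.6 ± 1.56, 2.66 ± 1.90, 1.02 ± 0.852 and 2.2 ± 0.517 FPKM in the same groups. The members lay between 0.28 (Cd72) and 0.75 (Fcmr and Cd79a) from their own mean profile, so that Cd79a, Fcmr and Fcer2a (0.66) were farther from it than these 8 genes.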

How the data were processed

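Whole bone marrow RNA of 12 libraries was prepared with a directional messenger RNA kit, per the labels' protocols. The authors deposited FPKM per gene, and STAR 2.6, Cufflinks 2.2.1 and the mm10 build are named in the submitters' processing notes. The annotation, the settings and the use of strand are not given in the sources used here. FPKM holds no counts, so the depth is unknown and no count model was used. All 21853 identifiers matched GENCODE vM21 symbols (GRCm38), and 24 symbols were shared by more than 1 identifier. Positions in the text are those of that annotation.

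Values were tested as log2(FPKM + 1) with limma 3.58.1 in R 4.3.3 (lmFit, eBayes with trend), in 1 model of 4 group means with 8 residual degrees of freedom. A gene was tested if 3 or more libraries reached an FPKM of 1, with Benjamini-Hochberg adjustment over all 10994 and a call under 0.05. The script was tested on simulated data. The members, the 3 pathway lists and the marker lists were chosen with earlier results of these data known. Named genes were the 9 members, up to 4 called genes of each pathway list and contrast by size of change (not all are given), the 8 nearest profiles among named genes averaging 2 FPKM or more, and markers. The ratios to Cd79b were added after seeing values. Alternatives covered the pseudocount, the filter, the scaling, fits on the groups compared, a replicate block and each library left out.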

Additional observations from a re-analysis of the deposited data

Results flagged for a closer look

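Pik3ap1, an adaptor that links the B cell receptor to phosphoinositide 3-kinase, had fitted differences of opposite sign with DEIX in unirradiated (-0.25) and irradiated mice (0.27), neither of which was called (limma adjusted p 0.107 and 0.0793). All 3 DEIX libraries (27.5, 28.1 and 30.6 FPKM) lay below the control mean of 34.4, and all 3 TBI+DEIX libraries (36.0, 34.9 and 35.2 FPKM) lay above the TBI mean of 29.3. The difference of the 2 effects was 0.51 (log2, SE 0.12), and its interaction term in the limma fit had an adjusted p of 0.154, so it was not called.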

How the results depend on the processing

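The count of members called was 3 in TBI+DEIX against DEIX and became 1 with a mean FPKM of at least 5, a filter that leaves out Cd22 and Fcer2a, and 0 with only the groups compared. In DEIX against TBI it went from 2 to 1 with that filter. Leaving out 1 library gave 0 to 2 members in TBI+DEIX against TBI, 2 to 4 in TBI+DEIX against DEIX and 1 to 3 in DEIX against TBI. The median difference of the members from control was -3.38 in TBI and -4.22 in TBI+DEIX with a pseudocount of 0.1, and without 1 library it ran from -2.85 to -2.35 in TBI, from -2.29 to -2.06 in DEIX and from -3.79 to -2.76 in TBI+DEIX.

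Pathway genes called numbered 11 in TBI against control, 5 with a mean FPKM of at least 5 and 22 with only the groups compared. In DEIX against control the 10 became 5 with a pseudocount of 0.1, 5 with a mean FPKM of at least 5 and 19 with only the groups compared. In TBI+DEIX against TBI the 4 became 1 after rescaling to an equal summed FPKM and 0 with only the groups compared. Leaving out 1 library gave 6 to 21, 2 to 22 and 0 to 16 in these comparisons, 18 to 29 in TBI+DEIX against control and 0 to 7 for the interaction. The cause was not tested.

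Signs that turned belonged to differences that were not called. Fam129c in DEIX against TBI was 0.031 with a pseudocount of 0.1. With 1 library left out, the differences in DEIX against TBI ran from -1.22 to 0.45 for Cd79a, from -0.73 to 0.32 for Fam129c, from -0.51 to 0.66 for Cd79b, from -0.015 to 0.69 for Blk and from -0.11 to 0.95 for Cd72, each with its lower end without TBI replicate 1. In TBI+DEIX against TBI they ran from -2.06 to 0.19 for Cd79a, from -1.01 to 0.52 for Fcrla and from -0.042 to 0.0079 for Fcer2a, and in TBI+DEIX against DEIX from -1.55 to 0.34 for Cd79a. The upper ends of Cd79a and Fcrla in these were without TBI+DEIX replicate 1.

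Deviations of libraries with the same replicate number correlated between -0.447 and 0.242 over 18 pairs of libraries, above 0.1 in 3. Over 36 pairs with different numbers they ran from -0.367 to 0.498, above 0.1 in 15. These values do not show pairing by number, and a batch that does not follow the numbers was not tested. A replicate block left the members called at 0, 3 and 2 in the comparisons of treated groups, and the pathway genes at 11, 9, 24 and 3 in the order TBI, DEIX and TBI+DEIX against control and TBI+DEIX against TBI.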
